A study of Mus musculus with 6 samples.

Results

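Drug and steroid metabolising enzymes were compared between flat (2D) cultures of epithelium from 3 regions of the mouse stomach, the antrum, the corpus and the forestomach. The enzymes were taken by gene symbol alone and numbered 55 of the 15431 listed genes used. They comprised 7 UDP-glucuronosyltransferases (UGT, symbols that begin Ugt1 or Ugt2), 28 cytochromes P450 (CYP, symbols that begin Cyp and a digit) and 20 soluble glutathione S-transferases (GST, the classes A, K, M, O, P, T and Z). The CYP members include Cyp2d37-ps, a pseudogene by its symbol, which was too scarce for a test. Cyp51, an enzyme of cholesterol synthesis, was left out, and Cyp4f18 and Gstp3 were listed at 0 in all 6 libraries and were not counted as members. Each region had 2 libraries. The antrum cultures, labelled antrum and pylorus together, and the corpus cultures came from WT mice and were grown by the study's own method. The forestomach cultures, also WT, were grown by a method published earlier by another group, so that region and culture conditions cannot be told apart in any comparison with forestomach. All 6 samples bear the mark p2, and the sources used here do not give the strain, age or sex of the mice. The sample labels carry the same 2 IDs in each region, but the columns do not carry them, so no library could be tied to an ID. No source says whether the 2 libraries of a region came from separate animals or separate dishes. Every p-value here thus rests on differences among the 6 libraries, and those may be technical.

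Foreign compounds, steroids and bile acids are generally cleared in steps. P450 enzymes of the endoplasmic reticulum introduce an oxygen, with electrons delivered by the reductase Por. UGT enzymes then attach glucuronic acid and GST enzymes attach glutathione to reactive electrophiles, after which membrane pumps export the conjugates. The liver and the small intestine are the best studied sites of this chemistry, and the stomach lining meets swallowed compounds first. Other P450 enzymes do not handle drugs but adjust the levels of vitamin D, retinoic acid, oxysterols and fatty acids.

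Expression is given as CPM (reads of a gene scaled to a fixed library total), as deposited. The steps between low values correspond to 36.9 to 47.7 M reads per library, of which 14.0 to 18.2 M lay on listed genes. A count of 3 reads equals 0.063 to 0.0814 CPM, a floor that holds for counting error alone, and genes used by every cell may also be listed at 0 in this table. Differences were tested with limma on log2(CPM + 1) over the 11891 genes that reached 1 CPM in at least 2 libraries, with Benjamini-Hochberg adjustment and a threshold of 0.05. This scale understates the change of genes near 0. The replicate libraries differed most in forestomach, where the SD of the log2 difference was 0.57, against 0.37 in antrum and 0.31 in corpus. Marker genes followed the labels. The summed CPM of 6 squamous keratinocyte markers was 3.73 to 5.63 in the 4 glandular (antrum and corpus) libraries and 11037 to 12866 in forestomach, whereas 6 columnar markers summed to 3360 to 5750 CPM in the glandular libraries and to 51.7 to 53.7 CPM in forestomach. The antral transcription factors Pdx1 and Nkx6-3 summed to 45.9 to 60.1 CPM in antrum and 2.49 to 5.34 CPM in corpus, with Gast, the gastrin gene, listed at 0 in all libraries. Fibroblast markers summed to 36.8 to 79.2 CPM in the glandular libraries and 0.12 to 0.29 CPM in forestomach, and intestinal markers to 53.2 to 172 CPM, nearly all from Vil1 and with Cdx2 at no more than 0.64 CPM, and to at most 0.17 CPM in forestomach. Immune markers summed to 3.67 to 5.06 CPM in the glandular libraries and 39.5 to 44.8 CPM in forestomach, where Cd68 made up the whole sum and Ptprc and Lyz2 were listed at 0 (at most 0.13 CPM in the glandular libraries). These sums move with every comparison against forestomach, and their part in the results was not tested. In these bulk libraries, fewer cells of a type and less RNA per cell cannot be told apart.

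The 3 enzyme families were distributed differently over the regions. Summed UGT expression was 95.2 and 133 CPM in antrum, 300.2 and 324 CPM in corpus, and 21.1 and 14.6 CPM in forestomach. Summed CYP expression was 323 and 274 CPM in antrum, 443 and 399 CPM in corpus, and 98.6 and 87.0 CPM in forestomach. For both families the libraries of the 3 regions did not overlap, with corpus above antrum and antrum above forestomach. Summed GST expression had another order, at 1489 and 1346 CPM in antrum, 880 and 691 CPM in corpus, and 786 and 732 CPM in forestomach. Antrum stood above both other regions, and the corpus and forestomach libraries overlapped. Most of the GST sum came from Gsto1 (38.2% to 47.4% of it in each library) and Gsta4 (16.4% to 39.9%). The order is thus mainly that of these genes and need not hold for the other members. Neither was called between antrum and corpus (limma adjusted p of 0.538 for Gsto1 and 0.44 for Gsta4). Set as glandular over forestomach, the ratio of the mean sums was 11.9 for UGT, 3.88 for CYP and 1.45 for GST. Set as antrum over corpus, it was 0.365 for UGT, 0.709 for CYP and 1.80 for GST.

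**Figure D1:**
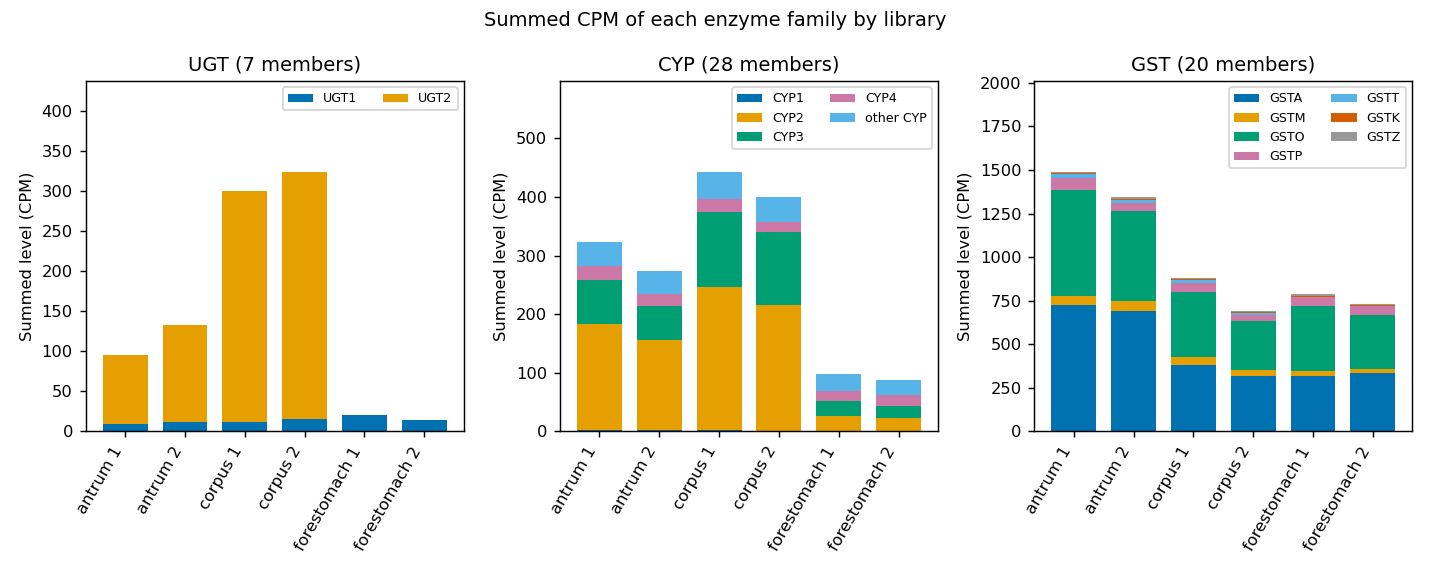
Summed expression (CPM, linear axis from 0) of the UGT, CYP and GST members in each library, antrum first, then corpus and forestomach, stacked by subfamily or class. UGT2 filled 85.4 to 309 CPM of the UGT bars in the glandular libraries and at most 0.02 CPM in forestomach, while the GST bars of corpus and forestomach reached similar heights.

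Of the 55 members, 42 reached the level needed for a test. Mean glandular expression was higher than forestomach expression for 24 of them and lower for 6, and 12 did not pass the test, with limma's adjusted p under 0.05 as the limit. Over all genes tested, 47.8% were called in this comparison, 21.1% higher and 26.7% lower, so a difference between these cultures was common for any gene. The members' median log2 fold change was 0.94, beside -0.13 over all genes tested. Taken region by region, 24 members were higher and 5 lower in antrum than in forestomach (38.9% of all genes tested were called), and 20 were higher and 6 lower in corpus than in forestomach (43.5% of all genes tested). By family the glandular minus forestomach medians were -0.10 for UGT, 1.30 for CYP and 0.58 for GST. The UGT median turned positive, at 0.09 after scaling to the listed genes and 0.06 after median ratio scaling, and the positive GST genes numbered 17 of 19 under both, against 14 as deposited. Of the 24 higher members, 12 reached 1 CPM in both forestomach libraries. The other 12, Ugt2b34, Ugt2b35, Cyp1b1, Cyp24a1, Cyp2c44, Cyp2c65, Cyp2d26, Cyp4v3, Gstm3, Gstm7, Gstt1 and Gstt2, were under 1 CPM in both and 6 of them were listed at 0. These met the filter through the glandular libraries alone. Of the 6 lower members, 3 reached 1 CPM in all glandular libraries, and Cyp26b1 and Cyp4f39 met the filter through forestomach alone. Members that met the filter on 1 side had to differ, so their calls and p-values, and the counts and medians that include them, are descriptions. The 13 members without a test, 2 UGT, 10 CYP and 1 GST, peaked at 1.51 CPM. Under the other scalings 32 members were called after scaling to the listed genes and 31 after median ratio scaling, the 30 included. Of 5683 genes called, 2508 were higher in the glandular cultures, against 3450 of 6306 after scaling to the listed genes and 3378 of 6381 after median ratio scaling, which moved the all-gene median to 0.02.

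**Figure D2:**
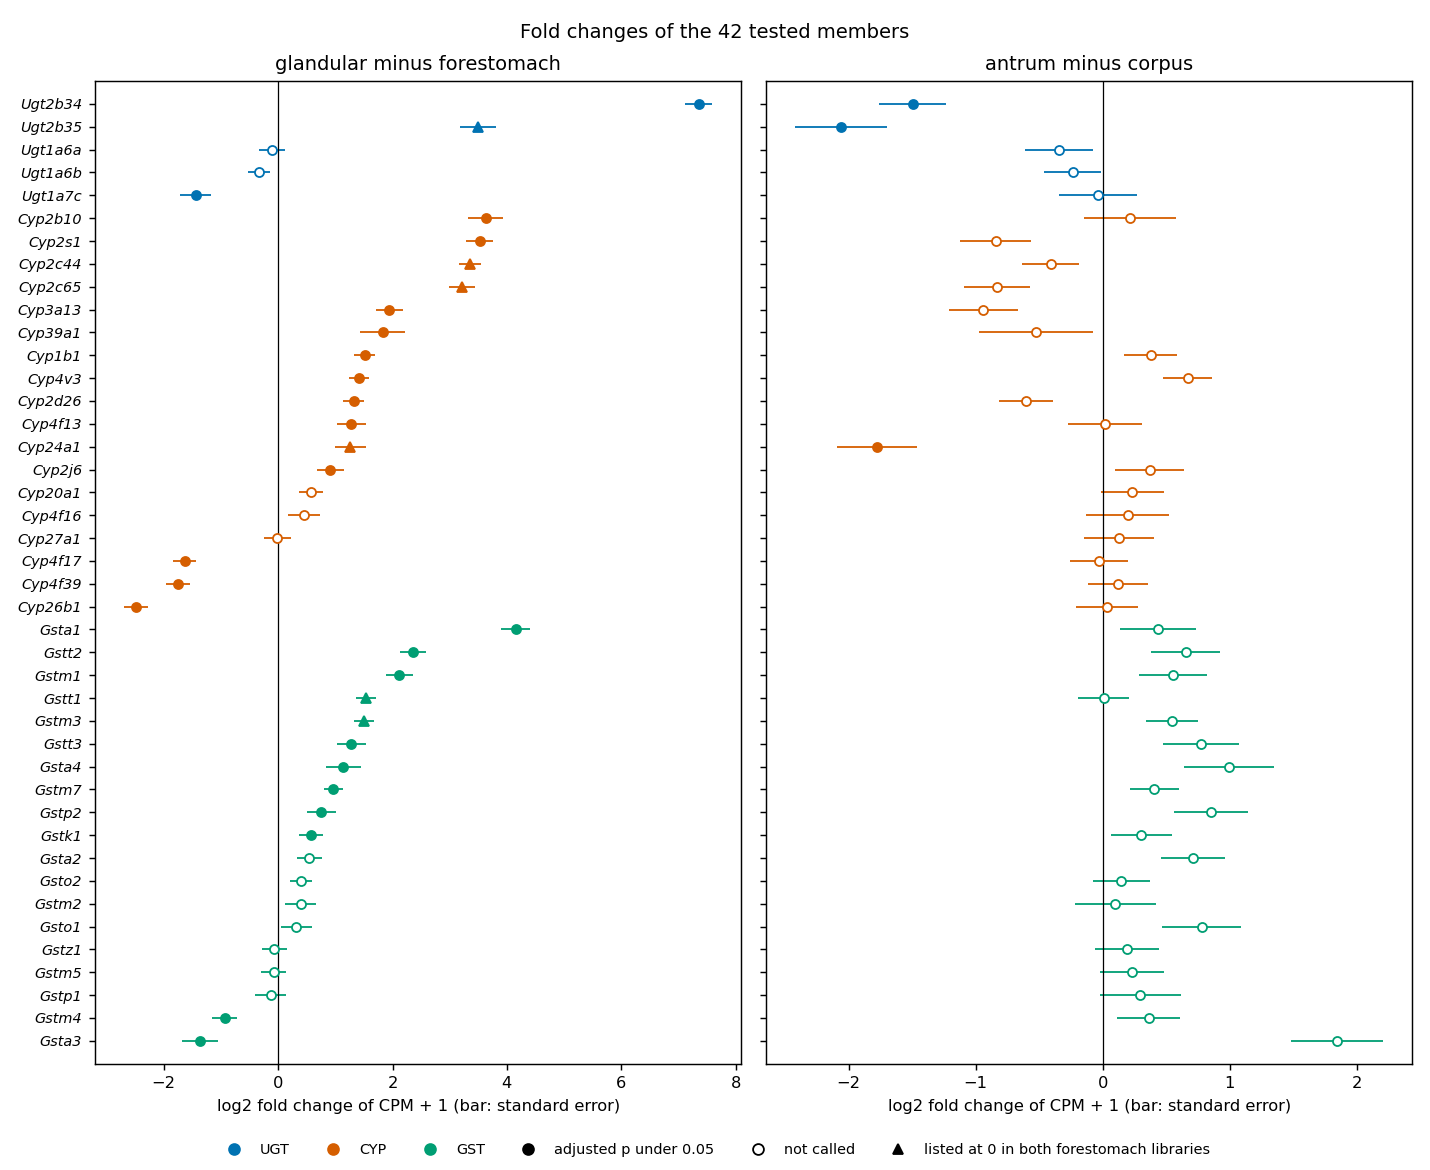
Log2 fold changes of the 42 tested members with their standard errors, glandular minus forestomach on the left and antrum minus corpus on the right. Filled symbols passed the adjusted p threshold of 0.05, and triangles mark members listed at 0 in both forestomach libraries, whose position depends on the 1 CPM added. On the left most CYP and GST members lie right of 0, and on the right the filled symbols are Ugt2b34, Ugt2b35 and Cyp24a1.

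The UGT2 genes gave the widest contrast. Ugt2b34, Ugt2b35 and Ugt2a3 lie next to each other in this order among the members on chromosome 5, and their promoters are shown because 2 of these neighbours moved together while the third stayed near 0. Sequences are from RefSeq on GRCm38.p6, run 5′ to 3′ on the gene's strand from 250 bases before to 50 bases after the start, and capitals mark matches to the motifs searched. Those were TGACNNNGC (the core of the antioxidant response element), GCGTG (the core of the xenobiotic response element), AGGTCA (a nuclear receptor half-site), GTTAAT (an HNF1 half-site) and TATAAA (the TATA box), sought on both strands.
Ugt2b34, chr5:86906888-86907187, minus strand: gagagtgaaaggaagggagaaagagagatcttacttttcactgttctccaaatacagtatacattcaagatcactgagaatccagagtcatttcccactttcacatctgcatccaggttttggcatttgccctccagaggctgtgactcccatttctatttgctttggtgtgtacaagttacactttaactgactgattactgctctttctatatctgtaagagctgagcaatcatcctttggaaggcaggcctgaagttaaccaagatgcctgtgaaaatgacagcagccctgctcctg
Ugt2b35, chr5:87000610-87000909, plus strand: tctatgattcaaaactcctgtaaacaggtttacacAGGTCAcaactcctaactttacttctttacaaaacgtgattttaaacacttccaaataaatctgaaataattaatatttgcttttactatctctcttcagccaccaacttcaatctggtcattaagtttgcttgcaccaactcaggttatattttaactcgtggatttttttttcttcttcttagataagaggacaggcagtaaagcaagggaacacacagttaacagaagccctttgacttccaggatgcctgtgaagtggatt
Ugt2a3, chr5:87337146-87337445, minus strand: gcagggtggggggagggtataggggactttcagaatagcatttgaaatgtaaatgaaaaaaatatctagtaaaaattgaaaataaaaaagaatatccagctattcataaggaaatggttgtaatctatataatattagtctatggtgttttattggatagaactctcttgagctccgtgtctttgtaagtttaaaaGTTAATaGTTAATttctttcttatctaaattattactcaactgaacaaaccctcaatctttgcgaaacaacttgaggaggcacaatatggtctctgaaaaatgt
None of the 5 motifs was found in the Ugt2b34 window, AGGTCA was found once in the Ugt2b35 window, and GTTAAT was found at 2 adjoining places in the Ugt2a3 window. Among 32851 promoters of this length, 16.3% held AGGTCA and 7.1% held GTTAAT. A match describes the letters and is not evidence of binding, and a missing match says only that these letters are not in the window.

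Ugt2b34 belongs to the UGT2B subfamily, which is known in the liver for conjugating steroids, bile acids and drugs. It had 82.6 and 114 CPM in antrum, 269.7 and 283 CPM in corpus, and 0 and 0.02 CPM in forestomach. Every glandular library exceeded both forestomach libraries, and every corpus library exceeded both antrum libraries. The glandular minus forestomach log2 fold change was 7.35 ± 0.23 (SE; limma adjusted p = 4.08e-08). Ugt2b34 made up 85.9% to 89.8% of the summed UGT CPM in the glandular libraries. Ugt2b35, its neighbour, had the same order of regions, with 2.79 and 6.99 CPM in antrum, 18.2 and 26.3 CPM in corpus, and a listing of 0 in both forestomach libraries (limma adjusted p = 1.87e-05 for glandular against forestomach). Per kilobase of exon the corpus means were 64.0 CPM for Ugt2b34 and 6.63 CPM for Ugt2b35. Ugt2a3 did not exceed 0.13 CPM in any library. Stretches of 50 bases shared with another gene made up 1.44% of the Ugt2b34 exons and 0.3% of those of Ugt2b35, so reads of these genes can be assigned with little ambiguity.

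The UGT1 genes had no such contrast. They share most of their exons and differ in the first one, and 51.1% to 79.6% of the 50-base stretches of Ugt1a6a, Ugt1a6b, Ugt1a7c and Ugt1a8 occur in another member, so the split between them is uncertain. Ugt1a7c, an enzyme of the UGT1A locus, was lower in the glandular cultures, with 1.21 and 1.17 CPM in antrum, 0.87 and 1.70 CPM in corpus, and 6.95 and 3.57 CPM in forestomach (log2 fold change -1.44 ± 0.27 SE, limma adjusted p = 0.00184). Ugt1a6a, which in humans has a counterpart acting on small phenols, was named after its values were seen. It had 6.84 and 8.46 CPM in antrum, 9.01 and 10.9 CPM in corpus, and 10.6 and 8.35 CPM in forestomach, the libraries of the regions overlapping (adjusted p = 0.742). In forestomach it supplied 50.1% and 57.0% of the summed UGT CPM. Summed over the locus, UGT1 expression was 9.80 to 15.2 CPM in the glandular libraries and 14.6 and 21.1 CPM in forestomach.

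Of 18 CYP genes tested, 12 were higher in the glandular cultures, 3 were lower and 3 did not pass. This was 83.3% called, beside 47.8% over all genes tested. Cyp2s1, a P450 of epithelia outside the liver, had 92.3 and 71.6 CPM in antrum, 155 and 138 CPM in corpus, and 10 and 7.36 CPM in forestomach. It supplied 26.1% to 35.1% of the summed CYP CPM of the glandular libraries. Its log2 fold change against forestomach was 3.52 ± 0.24 (SE; limma adjusted p = 3.3e-06), with no overlap between glandular and forestomach libraries. Cyp3a13 belongs to the CYP3A subfamily, known for oxidising many drugs and steroids. It had 74.8 and 57.6 CPM in antrum, 129 and 125 CPM in corpus, and 25.6 and 20.6 CPM in forestomach (log2 fold change 1.95 ± 0.24 SE, limma adjusted p = 0.000139). Per kilobase of exon Cyp3a13 stood above Cyp2s1, with means of 43.0 and 29.7 CPM in corpus and 7.81 and 1.76 CPM in forestomach.

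Cyp2b10, a mouse liver gene known for its induction by phenobarbital, had 52.9 and 34.3 CPM in antrum, 44.8 and 29.8 CPM in corpus, and 1.51 and 3.29 CPM in forestomach. Antrum and corpus overlapped, and both exceeded forestomach (log2 fold change 3.63 ± 0.31 SE, limma adjusted p = 1.49e-05). Both tested CYP2C genes were listed at 0 in both forestomach libraries. Cyp2c44, an epoxygenase of arachidonic acid that RefSeq now calls Cyp2c23, had 8.11 and 7.68 CPM in antrum and 11.4 and 10.3 CPM in corpus. Cyp2c65, a CYP2C gene of the digestive tract, had 4.90 and 7.19 CPM in antrum and 10.1 and 12.8 CPM in corpus, and 20.2% of its 50-base stretches also occur in Cyp2c66, which did not exceed 0.03 CPM. Cyp1b1, an enzyme of oestradiol and of polycyclic hydrocarbons, was scarce at 2.17 and 2.86 CPM in antrum and 1.84 and 1.55 CPM in corpus, and was almost undetected in forestomach at 0.08 and 0.07 CPM (log2 fold change 1.51 ± 0.18 SE, limma adjusted p = 0.000127).

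P450 enzymes with endogenous substrates went in both directions. Cyp26b1, which degrades retinoic acid, was found mainly in forestomach, with 0.13 and 0.06 CPM in antrum, 0.08 and 0.06 CPM in corpus, and 6.53 and 3.84 CPM in forestomach. Its log2 fold change of -2.48 ± 0.21 (SE; limma adjusted p = 1.32e-05) was the most negative of the members. Cyp39a1, an oxysterol hydroxylase of bile acid synthesis, was higher in the glandular cultures, with 9.40 and 11.4 CPM in antrum, 15.4 and 15.3 CPM in corpus, and 5.68 and 1.21 CPM in forestomach (log2 fold change 1.83 ± 0.39 SE, limma adjusted p = 0.00407). The 2 forestomach libraries differed more from each other for this gene than those of either other region.

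The CYP4F genes, whose products hydroxylate fatty acids, did not move as a block although 5 of them, Cyp4f39, Cyp4f17, Cyp4f16, Cyp4f15 and Cyp4f13, are consecutive members on chromosome 17. Cyp4f39, the mouse counterpart of a human enzyme that hydroxylates very long fatty acids for the skin barrier, had 0.21 and 0.23 CPM in antrum, 0.19 and 0.06 CPM in corpus, and 2.20 and 3.86 CPM in forestomach (log2 fold change -1.75 ± 0.20 SE, limma adjusted p = 0.00011). Cyp4f17 had 1.06 and 1.07 CPM in antrum, 1 and 1.22 CPM in corpus, and 6.37 and 4.66 CPM in forestomach (log2 fold change -1.63 ± 0.20 SE, limma adjusted p = 0.000146). At the other end of the row Cyp4f13, named after its values were seen, was higher in the glandular cultures, with 6.70 to 8.75 CPM against 3.40 and 1.86 CPM in forestomach (log2 fold change 1.28 ± 0.25 SE, adjusted p = 0.00278). Cyp4f16 between them did not pass the test (adjusted p = 0.221), and Cyp4f15 was too scarce for one. The squamous marker sum given above moved with Cyp4f39 and Cyp4f17 and opposite to Cyp4f13, and its part in the result was not tested.

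Cyp24a1, the enzyme that inactivates vitamin D, was scarce and uneven. It had 0.62 and 0.04 CPM in antrum, 4.99 and 2.29 CPM in corpus, and was listed at 0 in both forestomach libraries, so both corpus libraries exceeded all others. Against forestomach Cyp24a1 was called in corpus (log2 fold change 2.15 ± 0.31 SE) and not in antrum (0.38 ± 0.31 SE, limma adjusted p = 0.373). Cyp24a1 met the filter through corpus alone, so its calls are descriptions. The receptor Vdr, whose known targets include Cyp24a1, was highest in forestomach, where Cyp24a1 was listed at 0. It had 0.44 and 0.60 CPM in antrum, 0.27 and 0.57 CPM in corpus, and 33.2 and 22.1 CPM in forestomach (log2 fold change -4.27 ± 0.23 SE, limma adjusted p = 7.73e-07). Vdr met the filter through forestomach alone, so that p-value is a description. Between antrum and corpus Vdr did not pass (limma adjusted p = 0.925). Cyp27b1, which makes the active form of vitamin D, reached at most 0.23 CPM in the glandular libraries and was listed at 0 in forestomach, and Cyp2r1, which acts one step earlier, reached at most 0.62 CPM. Vdr, Cyp27b1 and Cyp2r1 were named after their values were seen.

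**Figure D3:**
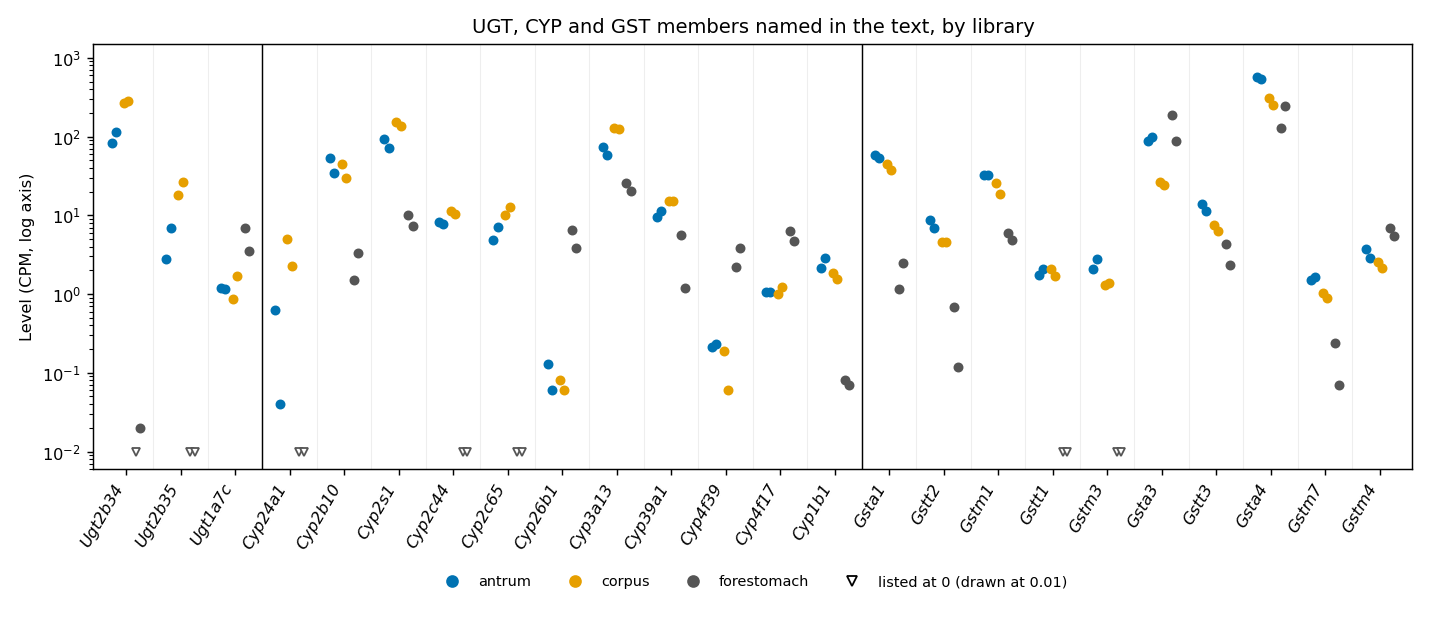
Expression (CPM, log axis) of the UGT, CYP and GST members named by rule, with antrum, corpus and forestomach libraries from left to right within each gene and open triangles for values listed at 0. Ugt2b34 stands at 82.6 to 283 CPM in the glandular libraries and at most 0.02 CPM in forestomach, and Cyp26b1, Cyp4f39, Cyp4f17, Gstm4 and Ugt1a7c are among the genes whose forestomach points lie on top.

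The GST family had the largest summed expression in every library. Of 19 GST genes tested, 10 were higher in the glandular cultures, 2 were lower and 7 did not pass. This was 63.2% called, beside 47.8% over all genes tested. With corpus alone set against forestomach it was 47.4%, near the 43.5% over all genes. Per kilobase of exon, Gsta4 led in antrum (mean 439 CPM per kb) and corpus (221 CPM per kb), and Gsto1 followed at 276 and 162 CPM per kb. In forestomach Gsto1 came first at 169 CPM per kb and Gsta4 next at 147 CPM per kb. Exon lengths came from GENCODE M21 and not from the authors' annotation, which the sources used here do not give. Gsto1, an omega-class enzyme that reduces disulfides and dehydroascorbate, was named after its values were seen. It had 603 and 514 CPM in antrum, 375 and 280.0 CPM in corpus, and 373 and 310.5 CPM in forestomach, and was not called against forestomach (log2 fold change 0.32 ± 0.27 SE, limma adjusted p = 0.355).

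The alpha class split by gene. The promoters of Gsta1 and Gsta3 are shown because these related genes were called in opposite directions, with capitals as above.
Gsta1, chr9:78230419-78230718, plus strand: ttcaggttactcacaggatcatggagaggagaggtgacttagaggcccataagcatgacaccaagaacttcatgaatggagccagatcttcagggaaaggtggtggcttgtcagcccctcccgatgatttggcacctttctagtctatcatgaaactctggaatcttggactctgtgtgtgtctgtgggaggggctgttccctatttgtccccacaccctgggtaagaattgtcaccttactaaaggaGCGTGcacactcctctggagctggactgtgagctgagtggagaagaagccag
Gsta3, chr1:21240335-21240634, plus strand: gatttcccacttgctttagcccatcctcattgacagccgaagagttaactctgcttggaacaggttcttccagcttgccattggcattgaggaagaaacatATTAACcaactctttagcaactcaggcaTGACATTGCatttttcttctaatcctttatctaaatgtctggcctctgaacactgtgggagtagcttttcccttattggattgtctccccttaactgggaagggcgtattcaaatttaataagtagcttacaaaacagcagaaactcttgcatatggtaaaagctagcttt
The Gsta1 window held 1 match to GCGTG, which occurs in 32.4% of all promoters of this length. The Gsta3 window held 1 match to TGACNNNGC, which occurs in 12.4% of them, and 1 match to GTTAAT on the opposite strand. The start of Gsta3 lies on chromosome 1, away from Gsta4, Gsta1 and Gsta2 on chromosome 9.

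Gsta1, an alpha-class enzyme known in the liver and gut, had 58.1 and 53.6 CPM in antrum, 45.2 and 37.2 CPM in corpus, and 1.17 and 2.48 CPM in forestomach. The glandular and forestomach libraries were far apart (log2 fold change 4.15 ± 0.26 SE, limma adjusted p = 1.81e-06). Its identity is uncertain, since 90.5% of its 50-base stretches occur in another gene, most of them in Gm3776, an unnamed model. Gsta4, the enzyme that conjugates the lipid peroxidation product hydroxynonenal, shares no such stretch. It had 575 and 537 CPM in antrum, 307 and 253 CPM in corpus, and 129 and 244 CPM in forestomach (log2 fold change 1.14 ± 0.31 SE, limma adjusted p = 0.0132). Against forestomach Gsta4 was called in antrum (log2 fold change 1.64 ± 0.35 SE, adjusted p = 0.0056) and not in corpus (0.65 ± 0.35 SE, adjusted p = 0.172), while the difference between antrum and corpus did not pass (adjusted p = 0.44).

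Gsta3, known in mouse liver for detoxifying aflatoxin, was lower in the glandular cultures. It had 88.3 and 100.2 CPM in antrum, 26.5 and 24.6 CPM in corpus, and 188 and 86.8 CPM in forestomach (log2 fold change -1.36 ± 0.31 SE, limma adjusted p = 0.00634). The antrum libraries lay within the range of the forestomach libraries, and the corpus libraries lay below all others. The comparisons of each glandular region with forestomach, which share the forestomach libraries, called Gsta3 in corpus (log2 fold change -2.28 ± 0.36 SE, adjusted p = 0.000931) and not in antrum (-0.44 ± 0.36 SE, adjusted p = 0.369). Gsta3 supplied 24.0% and 11.9% of the summed GST CPM in forestomach, beside 5.93% and 7.45% in antrum and 3.01% and 3.56% in corpus.

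In the mu class, whose 7 members lie in a row on chromosome 3, genes again went both ways. Gstm1 had 32.7 and 32.5 CPM in antrum, 25.6 and 18.7 CPM in corpus, and 6.02 and 4.83 CPM in forestomach (log2 fold change 2.12 ± 0.23 SE, limma adjusted p = 7.74e-05). Gstm4 had 3.74 and 2.84 CPM in antrum, 2.52 and 2.14 CPM in corpus, and 6.95 and 5.50 CPM in forestomach (log2 fold change -0.93 ± 0.21 SE, limma adjusted p = 0.0062). These neighbours, the last in the row, thus moved in opposite directions. Gstm7 was higher in the glandular cultures, with 0.88 to 1.66 CPM against 0.24 and 0.07 CPM in forestomach (log2 fold change 0.97 ± 0.17 SE, limma adjusted p = 0.00137). Gstm3 had 2.09 and 2.77 CPM in antrum and 1.30 and 1.38 CPM in corpus and was listed at 0 in forestomach, with 28.8% of its 50-base stretches found elsewhere. Gstm2 and Gstm5 did not pass.

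All 3 theta-class genes, whose products act on small halogenated compounds, were higher in the glandular cultures. Gstt2 had 8.83 and 6.95 CPM in antrum, 4.61 and 4.64 CPM in corpus, and 0.69 and 0.12 CPM in forestomach (log2 fold change 2.36 ± 0.23 SE, limma adjusted p = 3.76e-05). Gstt3 had 13.8 and 11.3 CPM in antrum, 7.62 and 6.25 CPM in corpus, and 4.38 and 2.35 CPM in forestomach (log2 fold change 1.28 ± 0.26 SE, limma adjusted p = 0.00309). Gstt1 had 1.73 and 2.07 CPM in antrum and 2.09 and 1.68 CPM in corpus and was listed at 0 in forestomach. Gstz1, an isomerase of tyrosine breakdown named after its values were seen, was even, with 7.53 to 9.25 CPM in the glandular libraries and 9.73 and 7.85 CPM in forestomach. The calls of Gstp2 and Gstk1 were fragile. Gstk1 (adjusted p = 0.0447) was called under 6 of 13 alternatives and was lost without any 1 glandular library or without forestomach 1 (adjusted p up to 0.133). Gstp2 (adjusted p = 0.0343) was called under 8 of 13 and was lost without antrum 1, corpus 1, corpus 2 or forestomach 2 (up to 0.125). Gstp2 also shares 49.1% of its 50-base stretches with Gstp1. The other 28 calls of members held under every alternative in which the gene was tested.

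Between antrum and corpus, 0 members were higher and 3 were lower in antrum, Ugt2b34, Ugt2b35 and Cyp24a1, while 39 did not pass limma's adjusted p threshold of 0.05. Over all genes tested, 0.757% were called, 0.555% higher and 0.202% lower, a split of 66 and 24 of 90 genes that was 41 and 25 of 66 after median ratio scaling. The log2 fold change was -1.50 ± 0.27 (SE) for Ugt2b34 and -2.06 ± 0.36 for Ugt2b35. For Cyp24a1 it was -1.77 ± 0.31. The adjusted p was 0.0435 for Ugt2b34, 0.0424 for Ugt2b35 and 0.0435 for Cyp24a1, close to the threshold. Cyp24a1 met the filter through corpus alone and had to differ, so its call and p-value, and the count of 3 that includes it, are descriptions. None of the 3 calls held when antrum 1 was left out (adjusted p of 0.611, 0.316 and 0.125). Without antrum 2 Ugt2b35 alone kept its call, without corpus 1 or corpus 2 neither UGT kept its call and Cyp24a1 fell short of the level needed for a test, and without either forestomach library, which enter through the shared spread, the calls of Ugt2b35 and Cyp24a1 were lost. No call held with a pseudocount of 0.1, without the filter on low values or without limma's intensity trend. All alternatives kept the sign, with log2 fold changes of -1.74 to -1.26 for Ugt2b34, -2.60 to -1.52 for Ugt2b35 and -3.46 to -1.45 for Cyp24a1.

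The members whose log2(CPM + 1) over the 6 libraries was most like these 3, by Pearson r, are given as a description. The points share their libraries and fall into 3 regions, so r mostly follows the differences between regions. Nearest to Ugt2b34 were Cyp2c65 (0.996), Cyp2c44 (0.996) and Cyp2s1 (0.992). Nearest to Ugt2b35 were Ugt2a3 (0.99, at levels near 0), Cyp2d26 (0.968) and Cyp2c65 (0.966). Cyp24a1 had no member as close, the nearest being Cyp4f15 (0.859), Cyp3a13 (0.855) and Ugt2a3 (0.853).

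Cell type markers moved with this comparison. Pit cell markers summed to 485 to 928 CPM in antrum and 2436 to 3113 CPM in corpus, and chief cell markers to 327 to 375 CPM in antrum and 1482 to 1727 CPM in corpus. In both lists 1 marker was at or near 0 in every library, Tff1 at no more than 0.06 CPM and Pga5 at no more than 0.03 CPM. Pgc made up most of the chief cell sum. Gkn1, Gkn2, Pgc and Gif were called lower in antrum, while Muc5ac and Bhlha15 were not called (limma adjusted p of 0.295 and 0.833). Bhlha15 overlapped, with 9.01 and 5.29 CPM in antrum and 8.74 and 8.83 CPM in corpus. Of 3 hepatocyte markers, whose sum was 0.56 to 0.70 CPM in antrum and 6.84 to 10.04 CPM in corpus, Alb did not exceed 0.34 CPM and Apoa1 made up most of the sum. The part of these cells in the 3 calls was not tested.

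Signs within each family were compared under each scaling. All 5 tested UGT genes, the called Ugt2b34 and Ugt2b35 among them, had negative antrum minus corpus log2 fold changes as deposited and under both other scalings. Ugt1a7c lay near 0 as deposited (-0.04), and the split of reads between the UGT1 genes is uncertain. The 19 tested GST genes were all positive as deposited, with a median of 0.43 beside 0.21 over all genes tested. Of these, 17 were positive after scaling to the listed genes and 16 after median ratio scaling, where the GST median was 0.28 and that of all genes tested 0.00, and Gstm2, Gstt1 and Gstz1 turned negative. None of the 19 was called. Gsta3 came nearest, its log2 fold change being 1.84 ± 0.36 (SE; adjusted p = 0.0705), and it was called under 2 of 13 alternatives, with adjusted p of 0.00847 to 0.534. CYP genes had no common sign, with 10 of 18 positive as deposited, 9 after scaling to the listed genes and 5 after median ratio scaling. Some CYP genes that did not pass the test had antrum and corpus libraries that did not overlap, in both directions. Cyp2s1, Cyp3a13 and Cyp2c65 (adjusted p of 0.383, 0.274 and 0.338), Cyp2c44, Cyp2d26 and Cyp39a1 were lower in both antrum libraries. Cyp4v3, Cyp20a1, Cyp1b1, Cyp2j6 and Cyp4f39 were higher in both. The share of all genes without overlap was not counted, so these genes give no result about the family.

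Cofactors and partners of these enzymes were examined as 10 lists with 92 listed genes, 76 of them tested. Genes of these lists that met the filter on 1 side only had to differ. Their calls and p-values, and the counts that include them, are descriptions. Of those named, Hnf4a, Pparg, Nr1i2, Sult1c2, Sult1d1, Hsd17b11, Aldh1a7 and Adh1 were under 1 CPM in both forestomach libraries. Vdr, Abcg2 and Crabp2 were under 1 CPM in all glandular libraries. Over all genes tested, 47.8% were called in glandular minus forestomach, 21.1% higher and 26.7% lower, and each list is to be read beside that share. Of 4 genes that supply UDP-glucuronic acid, 2 were higher in the glandular cultures, 0 were lower and 2 did not pass. Their 50% called was near the share over all genes. Ugdh, which makes this cofactor, had 122 and 133 CPM in antrum, 90.6 and 63.9 CPM in corpus, and 30.0 and 22.4 CPM in forestomach (log2 fold change 1.88 ± 0.25 SE, limma adjusted p = 0.000273). Slc35d1, its carrier into the endoplasmic reticulum, was also higher (1.24 ± 0.23 SE, limma adjusted p = 0.00188). In antrum and corpus Ugdh thus did not follow the UGT2 genes, which were higher in corpus, and its antrum minus corpus difference did not pass (adjusted p = 0.54). None of the 5 tested P450 redox partners passed limma's test in glandular minus forestomach, Por among them with 108 and 69.2 CPM in antrum, 132 and 93.5 CPM in corpus, and 122 and 174 CPM in forestomach. With corpus alone set against forestomach, 1 of the 5 was lower, the cytochrome b5 reductase Cyb5r3 (log2 fold change -0.89 ± 0.30 SE, limma adjusted p = 0.0358). In that comparison 43.5% of all genes tested were called.

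Glutathione supply was divided, with 2 of 6 genes higher, 2 lower and 2 not passing. Slc7a11, the cystine importer, had 400.4 and 262 CPM in antrum, 451 and 348 CPM in corpus, and 78.2 and 16.6 CPM in forestomach (log2 fold change 3.27 ± 0.52 SE, limma adjusted p = 0.000755). Gclc, the catalytic subunit for the limiting step of glutathione synthesis, was lower, with 80.3 and 78.4 CPM in antrum, 49.2 and 44.6 CPM in corpus, and 298 and 292 CPM in forestomach (log2 fold change -2.25 ± 0.22 SE, limma adjusted p = 3.69e-05). Of 4 glutathione transferases of the membrane-bound kind, 2 were higher, 1 was lower and 1 did not pass. Mgst3 was higher by 2.25 ± 0.29 on the log2 scale (SE; limma adjusted p = 0.000218), and Ptges, the inducible prostaglandin E synthase, was lower, with 1.28 to 5.29 CPM in the glandular libraries and 36.6 and 128 CPM in forestomach.

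Export pumps went in both directions. Of 7 tested, 4 were higher, 2 were lower and 1 did not pass. Abcc3, a pump for glucuronides, had 326 and 228 CPM in antrum, 219 and 146 CPM in corpus, and 19.8 and 20.2 CPM in forestomach (log2 fold change 3.40 ± 0.27 SE, limma adjusted p = 8.9e-06). Abcg2, a pump for sulfates and many drugs, had 0.13 and 0.09 CPM in antrum, 0.41 and 0.44 CPM in corpus, and 29.1 and 37.3 CPM in forestomach (log2 fold change -4.75 ± 0.20 SE, limma adjusted p = 1.74e-07). Of 5 cytosolic sulfotransferases, the other conjugating family, 4 were higher and 1 did not pass. Sult1c2 had 164 and 213 CPM in antrum and 158 and 152 CPM in corpus and was listed at 0 in forestomach, and Sult1d1 had 6.67 to 20.9 CPM in the glandular libraries and 0.05 and 0.02 CPM in forestomach.

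Among 15 tested receptors and partners that switch these enzymes on or off, 7 were higher in the glandular cultures, 3 were lower and 5 did not pass. By rule Hnf4a and Pparg are named. Hnf4a, a factor of liver and gut epithelium, had 99.98 and 65.8 CPM in antrum and 83.3 and 66.6 CPM in corpus and was listed at 0 in forestomach. Pparg, a fatty acid receptor, had 48.1 and 43.4 CPM in antrum, 49.1 and 39.8 CPM in corpus, and 0.19 and 0.22 CPM in forestomach (log2 fold change 5.25 ± 0.22 SE, limma adjusted p = 1.66e-07). The following receptors were named after their values were seen. Ahr, the dioxin receptor, had 38.2 and 26.4 CPM in antrum, 30.8 and 24.8 CPM in corpus, and 10 and 5.90 CPM in forestomach (log2 fold change 1.81 ± 0.28 SE, limma adjusted p = 0.000619). Nr1i2, the pregnane X receptor, had 2.01 to 3.17 CPM in the glandular libraries and was listed at 0 in forestomach. Rxra, the common dimer partner of Vdr and Nr1i2, was lower, with 12 to 21.8 CPM in the glandular libraries and 127 and 61.4 CPM in forestomach (log2 fold change -2.35 ± 0.33 SE, limma adjusted p = 0.000338). None of the 15 passed between antrum and corpus.

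**Figure D4:**
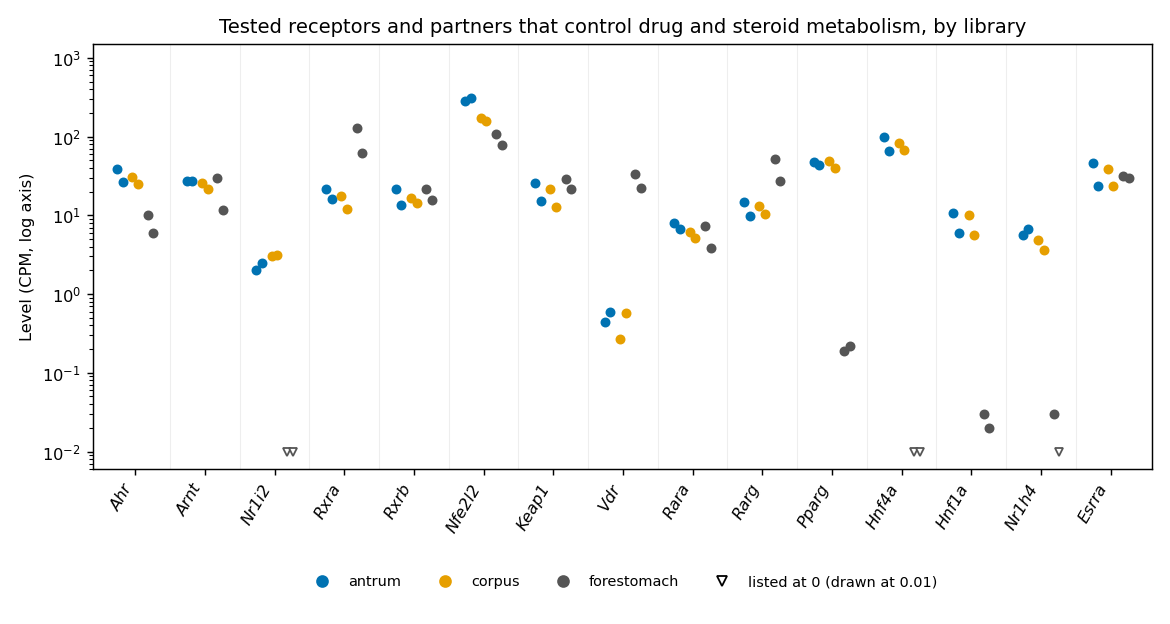
Expression (CPM, log axis) of the 15 tested receptors and partners, with antrum, corpus and forestomach libraries from left to right within each gene and open triangles for values listed at 0. Hnf4a stands at 65.8 to 99.98 CPM in the glandular libraries and at 0 in forestomach, while Vdr stands at 0.27 to 0.60 CPM in the glandular libraries and at 22.1 and 33.2 CPM in forestomach.

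Nfe2l2, the transcription factor of the electrophile response, and its well-known target Nqo1 were set side by side after their values were seen. Nfe2l2 had 280 and 312 CPM in antrum, 174 and 158 CPM in corpus, and 106 and 79.1 CPM in forestomach (log2 fold change 1.26 ± 0.25 SE, limma adjusted p = 0.00257). Nqo1, a quinone reductase, had 12.3 and 15.2 CPM in antrum, 9.01 and 10.3 CPM in corpus, and 81.1 and 71.1 CPM in forestomach (log2 fold change -2.62 ± 0.22 SE, limma adjusted p = 1.42e-05). Nfe2l2 was thus higher and Nqo1 lower in the glandular cultures than in forestomach. The glutathione supply genes had no common direction. Slc7a11 and Gsr were higher like Nfe2l2, Gclc and G6pdx were lower like Nqo1, and Gclm and Gss did not pass. Targets of Nfe2l2 were not examined as a list, so these genes do not show a direction of its targets. Nfe2l2, Nqo1 and Gclc had larger values in both antrum libraries than in both corpus libraries, a difference that did not pass the test for any of them. Other oxidoreductases and hydrolases were higher in 10 of 18 cases and lower in 4, and 4 did not pass. Aldh1a7, an aldehyde dehydrogenase, had 16.7 to 48.9 CPM in the glandular libraries and 0.48 and 0.32 CPM in forestomach, and Akr1c12, an aldo-keto reductase, had 39.0 to 46.1 CPM in the glandular libraries and 1.06 and 1.54 CPM in forestomach.

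Retinoid and steroid enzymes outside the 3 families were also examined. Of 5 retinoid genes 2 were higher, 2 were lower and 1 did not pass. Rdh10, which oxidises retinol, had 272 and 200 CPM in antrum, 154 and 108 CPM in corpus, and 3.42 and 3.15 CPM in forestomach (log2 fold change 5.35 ± 0.25 SE, limma adjusted p = 3.32e-07). Dhrs9, another retinol dehydrogenase, was lower, with 0.79 to 2.62 CPM in the glandular libraries and 24.3 and 55.3 CPM in forestomach. Crabp2, a carrier of retinoic acid named after its values were seen, was listed at 0 in all 4 glandular libraries and had 4.99 and 2.58 CPM in forestomach, the same side as Cyp26b1. Of 7 steroid-converting genes 2 were higher, 1 was lower and 4 did not pass. The 42.9% called here lay below the 47.8% over all genes tested. Hsd17b11 had 87.9 to 106 CPM in the glandular libraries and 0.27 and 0.17 CPM in forestomach, and Hsd17b7 had 27.2 to 40.1 CPM against 137 and 109 CPM in forestomach. Between antrum and corpus 3 of the 76 genes were called, all higher in antrum, namely Adh1 (6.38 and 8.08 CPM in antrum, 0.81 and 0.78 CPM in corpus, adjusted p = 0.00292), Aldh1a1 (adjusted p = 0.0316) and Stra6 (adjusted p = 0.0418). In this comparison 0.757% of all genes tested were called. Adh1 met the filter through antrum alone, so its call is a description. The Adh1 call held under all 11 alternatives in which the gene was tested, that of Aldh1a1 was lost when any 1 glandular library was left out (adjusted p up to 0.47), and that of Stra6 held under 1 of 13 (up to 0.354).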

How the data were processed

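Expression was read from the deposited CPM values of 6 libraries, which carry 2 decimals. The submitters' processing notes name the build mm9 and the tools DESeq2, edgeR, HTSeq and STAR, with no version. The sources used here do not give the annotation, the strand setting or the treatment of reads that match several genes. Columns name a region and a number, which the labels do not tie to single samples, so each column was assigned to its region (the pylorus columns to antrum). Every column has a group. Of 15450 rows, 19 whose symbols had become dates were left out. Low CPM values lie on steps of 1 read, which gave the depth, but the rounding was too coarse to recover counts, so no count test was run.

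A gene was tested if 2 or more libraries reached 1 CPM. The model was fitted on log2(CPM + 1) in R 4.3.3 with limma 3.58.1 (eBayes with trend), with 3 group means, 3 residual and 6.1 prior degrees of freedom, two-sided. The fit was tested on simulated data. Named members were Ugt2b34, Ugt2b35, Cyp24a1, up to 10 per family with the largest change among those called in glandular minus forestomach, and all called in antrum minus corpus, with the 3 members whose pattern over the 6 libraries was most like each of the first 3. From each pathway list up to 2 called genes with the largest change were named. The members and lists were chosen with earlier results of these data known. Shared stretches of 50 bases and exon lengths came from GENCODE M21, and promoters, found for 45 members, from RefSeq (GRCm38.p6), searched with Python 3.11.15, numpy 2.4.6 and pandas 2.3.3. Figures used matplotlib 3.10.9. Alternatives were pseudocounts of 0.1 and 0.5, no filter, 2 other scalings, no trend, a block on the column number, and each library left out.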

Additional observations from a re-analysis of the deposited data

How the results depend on the processing

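The 141 calls of members (4 comparisons) and of pathway genes (glandular minus forestomach and antrum minus corpus) were recomputed under up to 13 alternatives. Of 1803 values, 1709 kept their direction and their side of the threshold, 94 kept the direction but missed the threshold, and 0 changed direction. Among members that were not called, the sign changed with the scaling for 8 in antrum minus corpus and 5 in glandular minus forestomach. In antrum minus corpus, where 90 genes and 3 members were called, 54 genes were called without the filter, 57 after scaling to the listed genes and 48 without trend. The members called there numbered 0 with a pseudocount of 0.1, without the filter and without trend, and 1 with a pseudocount of 0.5. Leaving out 1 library in turn gave 10 to 76 genes and 0 to 2 members in antrum minus corpus, 3007 to 5198 genes (4630 in full) in antrum minus forestomach, and 3005 to 5505 genes (5178 in full) in corpus minus forestomach, with fewer libraries and the cause otherwise not tested. The log2 ratio of the CYP sums, glandular over forestomach, was 2.18 after scaling to the listed genes and 2.15 after median ratio scaling, against 1.95 as deposited, and antrum over corpus it was -0.67 and -0.74, against -0.50. For GST sums it was 0.72 after scaling to the listed genes, against 0.54 (glandular over forestomach), and 0.62 after median ratio scaling, against 0.85 (antrum over corpus).

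A replicate block on the column number gave 33 genes and 0 members in antrum minus corpus, and 31 members, against 30, in glandular minus forestomach. The numbers are not stated to pair the libraries. Deviations of same-numbered libraries from their group means correlated at 0.61 between antrum and corpus, -0.11 between antrum and forestomach and -0.06 between corpus and forestomach over 11891 genes. With 2 libraries a region, differences near the spread between libraries were not detectable, and values under 0.0814 CPM rest on 3 reads or fewer.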
